A study of Mus musculus with 8 samples.

Results

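Embryos sired by males of a KDM1A transgenic line, whether or not the male carried the transgene, were compared at the 2-cell stage with embryos sired by C57BL/6 males. The comparison was chosen by the genotype label of the sire and took 5 arrays of the line as 1 group, 3 with KDM1A TG sires and 2 with nonTG sires, against 3 arrays with C57BL/6 sires, so that all 8 arrays of the series entered. KDM1A TG males carry a KDM1A transgene, nonTG males are littermates born into the same line without it, and C57BL/6 males stand for the control strain. The sample titles of the line read TG3 and nonTG3, and what the number in them stands for is not stated there. Every mother was a C57BL/6 female given 5 IU of gonadotropin before mating, and embryos were flushed from her oviducts 46 to 48 hours after hCG. Each array measured RNA of 1 pool, with 26 embryos in a pool on average. The construct, its promoter, the number of founders, the strain background of the line, the age of the males and the genotype of the embryos could not be read from the labels or notes at hand. Nor do they say whether pools within a group had separate fathers. The p-values below therefore rest on the scatter among these pools, and that scatter may be technical only. The test drew the spread of each gene largely from all genes together, so a p-value need not reflect that gene's own scatter.

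KDM1A, also known as LSD1, takes methyl groups off lysine 4 of histone H3, a residue whose methylation marks active promoters and is laid down during sperm formation. A sperm hands over its genome, the few histones left on it and a small load of RNA. The embryo starts from RNA stored in the oocyte, which it degrades while its own genome is switched on, and in the mouse this exchange is under way at the 2-cell stage. The comparison below sets embryos of both kinds of male of the line, with the transgene and without it, against C57BL/6 embryos.

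Values are log2 expression summaries per gene, on which 1 unit is a doubling of signal. Of 14995 genes measured, 11444 had a mean above log2 2.07 and were tested with limma, and the number of arrays limits the precision of every value. The median over all probesets lay between 2.73 and 2.86 in each array. KDM1A TG replicates 1 and 3 held a wider spread of values than the others, with an interquartile range of 2.38 and 2.60 against 1.87 to 2.09. Kdm1a itself had 0 probesets here, so the transgene could not be checked in these data. Of the 15 genes listed as 2-cell embryo markers 13 were measured and all 13 passed the filter, among them the maternal gene Dppa3 with a mean of 8.95 in the line and 9.57 in C57BL/6 embryos. Markers of the oviduct epithelium were also measurable in all 3 groups, and their values stand beside the results below.

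Most of the change ran upward in embryos of the line. At an adjusted p under 0.05, 151 genes passed (1.32% of those tested), 124 higher (1.08%) and 27 lower (0.236%) in embryos of the line. An unadjusted p under 0.05 was reached by 1160 higher and 301 lower genes. The median log2 change of all genes tested was 0.12, and 60.6% of them had a change above 0. On 704 genes every array of the line lay above every C57BL/6 array (6.15% of those tested), and on 231 every array of the line lay below (2.02%), together 935 genes (8.17%). Over all 14995 genes, tested or not, these counts were 726 (4.84%) and 357 (2.38%). Both conditions, passing the test and arrays that did not overlap, were met by 93 genes, of which 78 were higher and 15 lower. Of these, 3 higher and 8 lower were predicted genes, pseudogenes or chemosensory receptors, and 2 lower genes were miRNA genes.

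The 2 directions were spread differently over levels and kinds of transcript. Among the 2861 genes with the highest mean level, 12.1% were higher without overlap and 0.70% lower, while among the 2861 with the lowest level 1.36% were higher and 4.12% lower. Protein-coding genes made up 691 of the 704 higher genes, or 6.66% of the 10376 tested. None of 130 miRNA genes tested was higher without overlap, and 9 (6.92%) were lower. Of 589 long noncoding RNA genes 9 (1.53%) were higher and 22 (3.74%) lower. By chromosome, the share of genes higher without overlap ran from 3.72% on chromosome 7 to 8.13% on chromosome 8 among the autosomes, and was 6.37% on X. On these higher genes, C57BL/6 replicate 2 was the C57BL/6 array nearest to the line for 52% and KDM1A TG replicate 2 the nearest array of the line for 36.5%.

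**Figure D1:**
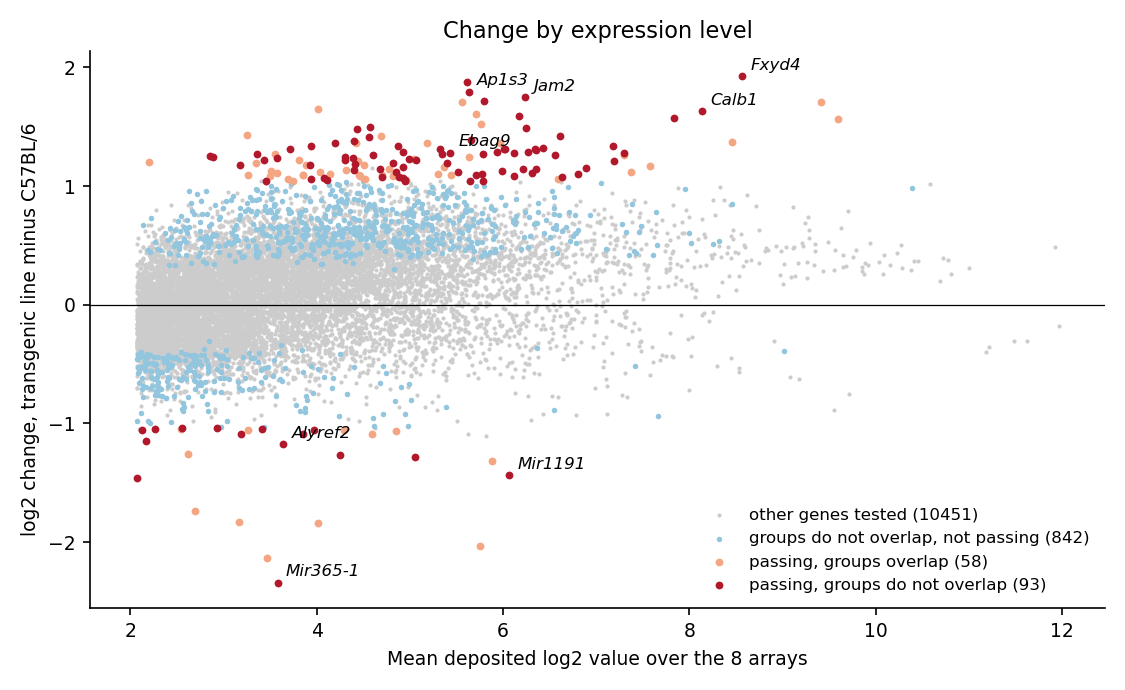
Each point is 1 of 11444 genes tested, with the mean deposited log2 value over the 8 arrays on the x axis and the log2 change of the transgenic line minus C57BL/6 on the y axis. The 93 genes called with no overlap between the groups lie mostly at positive changes above 1, and Mir365-1 is the lowest point at -2.34.

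Genes of ion and amino acid transport are described here together with a calcium buffer and carbonic anhydrases. Of these, Fxyd4, Calb1, Slc6a14 and Car5b were among the largest rises. Fxyd4, a small membrane protein that tunes the sodium pump, had log2 values of 8.98, 9.04 and 9.90 in KDM1A TG arrays and 8.74 and 9.78 in nonTG arrays, against 7.56, 8.37 and 6.16 in C57BL/6 arrays. The lowest array of the line, a nonTG one, stood 0.37 above the highest C57BL/6 array, and Fxyd4 rose 3.80-fold (log2 change 1.93, SE 0.31, 95% interval of the fold 2.49 to 5.81, adjusted p = 1.5e-05). Atp1b1, the beta subunit of that pump, had 6.34, 6.91 and 7.57 in KDM1A TG and 6.51 and 6.91 in nonTG arrays, against 5.16, 5.92 and 5.55 in C57BL/6 arrays. Its log2 change was 1.31 (SE 0.30, adjusted p = 0.00588) with a gap of 0.42 between the groups. Slc6a14, an importer of neutral and basic amino acids, measured 4.86, 5.38 and 5.64 in KDM1A TG and 4.6 and 5.19 in nonTG arrays, against 3.58, 4.24 and 3.09 in C57BL/6 arrays, with a log2 change of 1.5 (SE 0.30, adjusted p = 0.000893). Calb1 encodes calbindin, a calcium buffer of transporting epithelia and neurons. Its values were 8.26, 8.39 and 8.92 in KDM1A TG and 8.59 and 9.58 in nonTG arrays, against 7.41, 7.61 and 6.32 in C57BL/6 arrays, a rise of 1.63 (SE 0.30, adjusted p = 0.000266). Car5b, a mitochondrial carbonic anhydrase on X, spread widely within the line, with 4.25, 4.66 and 5.58 in KDM1A TG and 4.33 and 6.13 in nonTG arrays, against 3.1, 3.35 and 4.07 in C57BL/6 arrays. It rose by 1.48 (SE 0.31, adjusted p = 0.00148) with a gap of only 0.17. The cytosolic carbonic anhydrase gene Car2 also passed (log2 change 1.37, adjusted p = 0.00679), but its groups overlapped, with 7.28, 5.69 and 6.67 in KDM1A TG and 6.71 and 6.05 in nonTG arrays, against 5.81, 6.12 and 3.41 in C57BL/6 arrays.

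Over the whole lists, 2 of 7 genes of the sodium pump and its Fxyd regulators passed, both higher, with a median log2 change of 0.41 against 0.12 for all genes, of which 1.08% passed higher. Relative to all genes the median was 0.30, but 0.052 without C57BL/6 replicate 3, 0.52 without C57BL/6 replicate 2 and -0.13 with the mean of oviduct markers, described below, as a covariate. The carbonic anhydrases likewise had 2 of 7 genes passing higher and a median of 0.36, or 0.25 relative to all genes and 0.42 without C57BL/6 replicate 2. Fxyd1 did not pass (log2 change 0.78, adjusted p = 0.242). Of the genes in the preceding paragraph, Fxyd4 passed without any single array. Without C57BL/6 replicate 3 the adjusted p was 0.0762 for Calb1 and 0.0784 for Slc6a14, and Car2 had a log2 change of 0.51 (adjusted p = 0.666). Without KDM1A TG replicate 3 it was 0.105 for Atp1b1, 0.0799 for Car5b and 0.162 for Car2. Without C57BL/6 replicate 1 it was 0.172 for Atp1b1 and 0.0744 for Car5b, and without nonTG replicate 2 0.0611 for Car5b and 0.0561 for Car2. Car2 also missed the threshold without KDM1A TG replicate 1 (adjusted p = 0.0575).

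**Figure D2:**
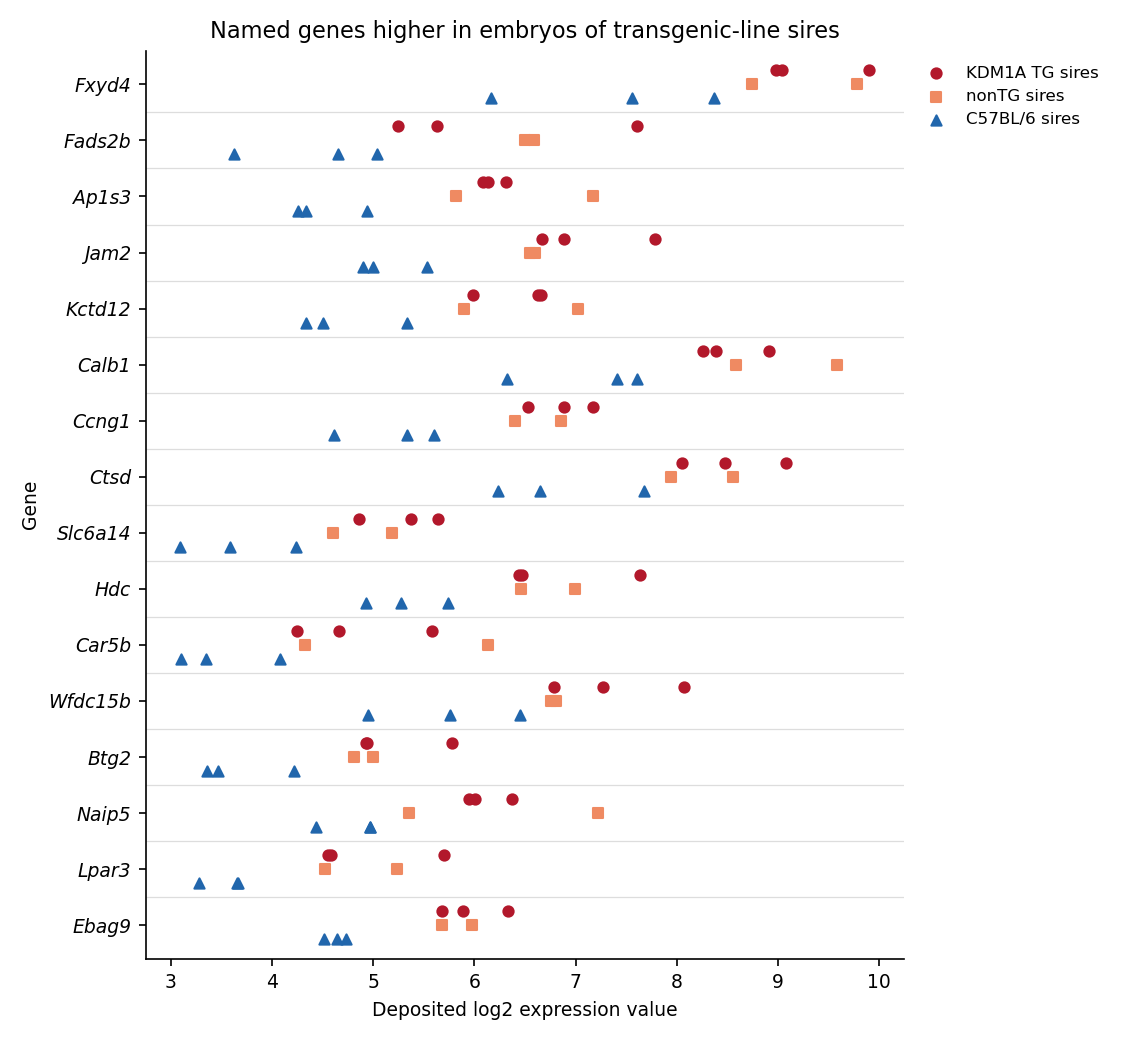
Deposited log2 values of the 16 named genes with the largest rises or widest gaps, 1 point per array, by kind of sire. In every row all 5 points of the line lie to the right of the 3 C57BL/6 points, and the distance between them is widest for Jam2 (1.01) and smallest for Car5b (0.17).

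Cell adhesion was led by Jam2, a junctional adhesion molecule of the immunoglobulin family. It measured 6.67, 6.88 and 7.79 in KDM1A TG arrays and 6.55 and 6.60 in nonTG arrays, against 4.99, 5.54 and 4.90 in C57BL/6 arrays. No other higher gene that passed had its groups so far apart, the gap being 1.01, and Jam2 rose 3.37-fold (95% interval 2.23 to 5.09, SE 0.30 on the log2 scale, adjusted p = 4.97e-05). Of 18 genes of junctions and adhesion tested, 16 had a change above 0 and their median was 0.57, against 0.12 for all genes. Jam2 alone passed, where 1.08% of all genes passed higher. On 9 of the 18 every array of the line stood above every C57BL/6 array, where 6.15% of all genes and 12.1% of the 2861 genes with the highest level did. The 9 include the tight junction genes F11r (log2 change 0.70), Ocln (0.45), Tjp1 (0.51) and Cldn7 (0.77, adjusted p = 0.219). They also include the genes of the cadherin complex that joins neighbouring cells, namely Cdh1 (0.62), Ctnna1 (0.72), Ctnnb1 (0.75) and Jup (0.50). Cldn3, a claudin found in many epithelia, had 6.23, 5.82 and 6.61 in KDM1A TG and 5.69 and 5.75 in nonTG arrays, against 4.75, 5.75 and 4.43 in C57BL/6 arrays. C57BL/6 replicate 2 lay inside the range of the line there, and Cldn3 did not pass (log2 change 1.04, adjusted p = 0.0527). The mean level of the list was 4.79, 4.53 and 5.17 in KDM1A TG and 4.67 and 4.40 in nonTG arrays, against 4.07, 4.30 and 4.23 in C57BL/6 arrays, so its groups did not overlap either.

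Membrane traffic was represented by 3 genes. Ap1s3, a small subunit of the clathrin adaptor that sorts cargo at the trans-Golgi network, had 6.13, 6.31 and 6.09 in KDM1A TG and 5.81 and 7.17 in nonTG arrays, against 4.26, 4.94 and 4.33 in C57BL/6 arrays. It rose 3.47-fold (95% interval 2.30 to 5.25, SE 0.30, adjusted p = 2.95e-05), with a gap of 0.88 between the groups. Ctsd, the lysosomal protease cathepsin D, reached 8.05, 8.48 and 9.08 in KDM1A TG and 7.95 and 8.56 in nonTG arrays, against 6.23, 7.67 and 6.65 in C57BL/6 arrays. Its log2 change was 1.57 (SE 0.30, adjusted p = 0.000439) and missed the threshold without C57BL/6 replicate 1 (adjusted p = 0.0775). Lrp2, the endocytic receptor megalin, which preimplantation embryos and absorptive epithelia use, measured 4.56, 5.14 and 5.46 in KDM1A TG and 4.05 and 5.04 in nonTG arrays, against 3.12, 3.80 and 3.93 in C57BL/6 arrays. Its rise of 1.23 (SE 0.30, adjusted p = 0.0112) was not called without C57BL/6 replicate 1, KDM1A TG replicate 3 or nonTG replicate 2 (adjusted p = 0.289, 0.156 and 0.0616).

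Ccng1 and Btg2 of growth arrest and Dnajc3 of protein folding rose, and no other member of their lists passed. Ccng1, which encodes cyclin G1, a target of p53, measured 6.88, 6.53 and 7.17 in KDM1A TG and 6.40 and 6.86 in nonTG arrays, against 5.33, 5.60 and 4.61 in C57BL/6 arrays. The arrays of the line were close to each other and 0.80 or more above every C57BL/6 array, and the rise was 3.01-fold (95% interval 1.99 to 4.53, SE 0.30, adjusted p = 0.000322). Btg2, an antiproliferative gene also induced by p53, had 4.93, 4.94 and 5.78 in KDM1A TG and 4.99 and 4.81 in nonTG arrays, against 3.36, 4.22 and 3.46 in C57BL/6 arrays. It rose by 1.41 (SE 0.30, adjusted p = 0.00219), with an adjusted p of 0.0653 without KDM1A TG replicate 3 and 0.0789 without C57BL/6 replicate 1. Of 19 p53 targets tested these were the 2 that passed, where 1.08% of all genes passed higher. The median of the list was 0.21, with 12 genes above 0, and relative to all genes it was 0.099, or 0.021 without KDM1A TG replicate 1 and 0.19 without C57BL/6 replicate 1. Dnajc3, a chaperone partner in the endoplasmic reticulum that restrains the kinases slowing translation under stress, had 6.13, 5.85 and 7.09 in KDM1A TG and 6.14 and 6.11 in nonTG arrays, against 5.37, 5.04 and 4.59 in C57BL/6 arrays. It rose by 1.27 (SE 0.30, adjusted p = 0.00774) and lost its call when KDM1A TG replicate 3 (adjusted p = 0.133) or C57BL/6 replicate 3 (adjusted p = 0.194) was left out.

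Dnajc3 alone passed among 29 heat shock and unfolded protein response genes tested, where 1.08% of all genes passed higher. Of the 29 genes, 27 had a change above 0 around a median of 0.50. On 8 of the 29 the groups did not overlap, with the line higher, where 6.15% of all genes and 12.1% of those with the highest level did so, among them the chaperones of the endoplasmic reticulum Hsp90b1 (log2 change 0.85, adjusted p = 0.157), Calr (0.62) and Canx (0.66) and the mitochondrial chaperonin gene Hspe1 (0.64). Pdia6, a disulfide isomerase, had a change of 0.81 with overlapping groups (adjusted p = 0.193). As a mean over the list, levels were 5.87, 5.68 and 6.46 in KDM1A TG and 5.86 and 5.72 in nonTG arrays, against 5.49, 5.39 and 5.41 in C57BL/6 arrays. KDM1A TG replicate 3 stood highest, and the lowest array of the line still lay above the highest C57BL/6 array.

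Lipid metabolism and signalling contributed Fads2b and Lpar3. Fads2b, a relative of the fatty acid desaturase gene Fads2, measured 5.25, 5.63 and 7.61 in KDM1A TG and 6.50 and 6.58 in nonTG arrays, against 5.04, 4.65 and 3.62 in C57BL/6 arrays. It rose 3.67-fold (95% interval 2.39 to 5.64, SE 0.31, adjusted p = 2.95e-05) with a gap of 0.21, and KDM1A TG replicate 3 stood highest. Of 31 lipid and fatty acid genes tested 24 had a change above 0, with a median of 0.28. Fads2b was the 1 that passed, where 1.08% of all genes passed higher. The list median relative to all genes was 0.16, and 0.052 without KDM1A TG replicate 3. The carnitine palmitoyltransferase gene Cpt1a (0.91, adjusted p = 0.124) and the acyl-CoA dehydrogenase gene Acadl (0.88, adjusted p = 0.151) had overlapping groups. Lpar3, a receptor for lysophosphatidic acid, had 4.58, 4.56 and 5.69 in KDM1A TG and 4.52 and 5.23 in nonTG arrays, against 3.67, 3.66 and 3.28 in C57BL/6 arrays. The gap was 0.86 and the rise 1.38 (SE 0.30, adjusted p = 0.00289), with an adjusted p of 0.0799 without KDM1A TG replicate 3 and 0.0664 without C57BL/6 replicate 3.

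Further signalling, regulatory and defence genes rose. Kctd12, which associates with GABA-B receptors and shapes their response, had 6.63, 5.98 and 6.66 in KDM1A TG and 5.90 and 7.02 in nonTG arrays, against 4.34, 5.33 and 4.50 in C57BL/6 arrays. It rose 3.28-fold (95% interval 2.17 to 4.96, SE 0.30, adjusted p = 8.47e-05), and its other probeset, which is dimmer, gave a log2 change of 0.90 where the one used gave 1.71. Hdc, the enzyme that makes histamine, measured 6.44, 6.47 and 7.64 in KDM1A TG and 6.46 and 6.995 in nonTG arrays, against 5.28, 5.74 and 4.93 in C57BL/6 arrays. It rose by 1.49 (SE 0.30, adjusted p = 0.000968) and had an adjusted p of 0.0532 without KDM1A TG replicate 3. Ebag9, a gene that responds to estrogen, had narrow groups, with 5.68, 5.88 and 6.33 in KDM1A TG and 5.98 and 5.68 in nonTG arrays, against 4.64, 4.73 and 4.51 in C57BL/6 arrays. Its gap of 0.95 was the second widest on the higher side among named genes (log2 change 1.28, SE 0.30, adjusted p = 0.00647), and the call was lost without KDM1A TG replicate 3, C57BL/6 replicate 1 or C57BL/6 replicate 3 (adjusted p = 0.0769, 0.0663 and 0.0762).

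Naip5, a cytosolic sensor of bacterial flagellin, had 5.95, 6.37 and 6.00 in KDM1A TG and 5.35 and 7.22 in nonTG arrays, against 4.44, 4.97 and 4.97 in C57BL/6 arrays. The nonTG arrays were both the lowest and the highest of the line, and the rise was 1.39 (SE 0.30, adjusted p = 0.00305), not called without nonTG replicate 2 (adjusted p = 0.0616) or C57BL/6 replicate 1 (adjusted p = 0.103). Wfdc15b and Wfdc2 encode secreted proteins with whey acidic protein domains, and Wfdc2 is a marker of oviduct epithelium. Wfdc15b measured 7.27, 6.79 and 8.07 in KDM1A TG and 6.81 and 6.76 in nonTG arrays, against 5.76, 6.45 and 4.94 in C57BL/6 arrays (log2 change 1.42, SE 0.31, adjusted p = 0.00249). Wfdc2 measured 7.56, 7.41 and 7.62 in KDM1A TG and 7.75 and 7.90 in nonTG arrays, against 6.54, 7.03 and 5.75 in C57BL/6 arrays (log2 change 1.21, SE 0.30, adjusted p = 0.0124). The line was even for Wfdc2 and the C57BL/6 arrays uneven, and without C57BL/6 replicate 3 the change was 0.87 for Wfdc2 (adjusted p = 0.379) and 1.04 for Wfdc15b (adjusted p = 0.218). Neither passed without KDM1A TG replicate 3 (adjusted p = 0.0799 for Wfdc2 and 0.0975 for Wfdc15b), and Wfdc2 passed neither without nonTG replicate 2 nor without C57BL/6 replicate 1 (adjusted p = 0.0598 and 0.0775).

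Genes tied to the first lineages of the embryo gave 3 calls of 23 tested, all higher, where 1.08% of all genes passed higher. The median of the list, 0.19, was near the 0.12 of all genes, and relative to all genes it was 0.076, or 0.054 without KDM1A TG replicate 3 and 0.24 without C57BL/6 replicate 1. Id2, an inhibitor of basic helix-loop-helix factors that is active in trophectoderm, had 7.57, 7.40 and 8.03 in KDM1A TG and 7.59 and 8.30 in nonTG arrays, against 6.56, 6.96 and 5.98 in C57BL/6 arrays. All 5 arrays of the line exceeded the C57BL/6 arrays by at least 0.44, and Id2 rose by 1.28 (SE 0.30, adjusted p = 0.007). The other 2 were Lrp2, described above, and Gata2, a zinc finger factor of trophoblast and blood, which passed with overlapping groups (log2 change 1.09, adjusted p = 0.037). Krt8, a keratin of trophectoderm that is equally a keratin of the oviduct epithelium, stood higher without overlap but did not pass (0.85, adjusted p = 0.152). Without C57BL/6 replicate 3, KDM1A TG replicate 3, C57BL/6 replicate 1 or nonTG replicate 2 the adjusted p of Id2 was 0.22, 0.0799, 0.0602 and 0.0561. Gata2 passed only without KDM1A TG replicate 2 or nonTG replicate 1 among the fits that left out 1 array, the others giving adjusted p from 0.0801 to 0.246.

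The 5 higher genes that also passed after quantile normalization, a scaling that gives all arrays the same distribution, were Fxyd4, Ap1s3, Jam2, Kctd12 and Ccng1. The RefSeq promoter table (GRCm38.p6) holds an entry for each of them except Jam2. The 100 bases before the annotated start of those 4 genes, all on the minus strand, are shown because these genes passed in the deposited values and after that scaling, with matches to the CCAAT motif and to the GC box GGGCGG, on either strand, in capitals.
Fxyd4 (chr6:117937336-117937435): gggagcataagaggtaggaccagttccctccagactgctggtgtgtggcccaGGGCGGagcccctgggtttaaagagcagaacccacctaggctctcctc
Ap1s3 (chr1:79671973-79672072): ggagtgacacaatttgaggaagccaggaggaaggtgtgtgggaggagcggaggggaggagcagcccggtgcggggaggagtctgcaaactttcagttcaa
Kctd12 (chr14:102982638-102982737): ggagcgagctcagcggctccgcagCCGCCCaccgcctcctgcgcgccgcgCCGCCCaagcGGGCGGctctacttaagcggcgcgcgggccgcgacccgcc
Ccng1 (chr11:40755287-40755386): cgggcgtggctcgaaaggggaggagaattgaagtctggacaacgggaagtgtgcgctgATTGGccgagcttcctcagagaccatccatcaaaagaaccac
Kctd12 holds 3 GC boxes in this window, Fxyd4 1 and Ccng1 1 CCAAT motif, and Ap1s3 none of these letters. Over the 250 bases before the start, CCAAT occurred in 52.4% of the 63 promoters of higher genes that passed without overlap and have an entry, and in 36.2% of the 8838 promoters of all tested genes. GGGCGG occurred in 58.7% and 52.6%, and TATAAA in 6.35% and 8.85%. A match is a run of letters and not a binding site.

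Fewer genes were lower in embryos of the line, and the largest fall was that of a miRNA gene. Mir365-1 encodes the hairpin of miR-365, a small RNA that lowers the output of messages matching its seed. Small RNA genes were ranked apart from the other genes, and 2 passed without overlap, both lower. With overlap, Mir467e passed lower (log2 change -1.32, adjusted p = 0.0233), and the small nucleolar RNA genes Snord15a (1.65, adjusted p = 0.000324) and Rnu3a (1.43, adjusted p = 0.00271) passed higher. Their mature sequences, from RefSeq (GRCm38.p6, all on the plus strand), are given because the probesets bear only the gene names, with the seed (bases 2 to 8) in capitals.
miR-365-3p (chr16:13453895-13453916): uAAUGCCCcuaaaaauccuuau
miR-365-1-5p (chr16:13453855-13453877): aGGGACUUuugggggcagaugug
miR-1191a (chr7:27205615-27205635): cAGUCUUAcuauguagcccua
The seed AAUGCCC of miR-365-3p belongs to Mir365-1 and to the second copy Mir365-2, which make the same mature miRNA, and to no other entry of the table. The seed of miR-1191a is listed for Mir1191 alone. Whether a probeset reads the hairpin or the mature miRNA cannot be told from the files.

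Mir365-1 measured 2.63, 2.24 and 3.27 in KDM1A TG arrays and 3.26 and 2.10 in nonTG arrays, against 5.90, 4.94 and 4.29 in C57BL/6 arrays. The highest array of the line lay 1.02 below the lowest C57BL/6 array. Mir365-1 fell to 0.197 of the C57BL/6 level (log2 change -2.34, SE 0.31, 95% interval of the ratio 0.13 to 0.30, adjusted p = 7.26e-09), and its adjusted p stayed at or below 0.0014 under all 17 alternatives run for named genes. KDM1A TG and nonTG arrays differed by 0.04 on this gene. The second copy, Mir365-2, was not tested, its mean being 1.24 in the line and 1.46 in C57BL/6 embryos, under the filter level of 2.07. Mir193b, the neighbour with which Mir365-1 is clustered on chromosome 16, did not pass (log2 change 0.31, adjusted p = 0.654), with 2.83, 2.66 and 2.29 in KDM1A TG and 1.86 and 3.16 in nonTG arrays, against 2.30, 1.93 and 2.52 in C57BL/6 arrays. Mir1191 had 5.59, 5.95 and 5.07 in KDM1A TG and 5.85 and 5.16 in nonTG arrays, against 8.39, 6.24 and 6.25 in C57BL/6 arrays. Its log2 change was -1.43 (SE 0.31, adjusted p = 0.00271) and rested on C57BL/6 replicate 1, without which it was -0.72 (adjusted p = 0.617), and it passed neither without KDM1A TG replicate 3 (adjusted p = 0.0974) nor without nonTG replicate 2 (adjusted p = 0.0561).

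Among protein-coding genes of the lower side 5 passed without overlap under the naming rule, with adjusted p from 0.0191 to 0.049998. Alyref2, an mRNA export adaptor related to Alyref, had 2.85, 3.72 and 3.78 in KDM1A TG and 3.29 and 2.37 in nonTG arrays, against 4.49, 4.53 and 4.10 in C57BL/6 arrays. Its log2 change was -1.17 (SE 0.30, adjusted p = 0.0191), and its dimmer second probeset gave -0.79. Ass1, which makes argininosuccinate in the urea cycle and in arginine synthesis, measured 3.12, 3.38 and 2.90 in KDM1A TG and 2.16 and 2.30 in nonTG arrays, against 3.41, 4.27 and 3.91 in C57BL/6 arrays. KDM1A TG replicate 2 came within 0.03 of the lowest C57BL/6 array, and Ass1 fell by 1.09 (SE 0.30, adjusted p = 0.037). Cyp2a22, a cytochrome P450 gene, fell by 1.05 (SE 0.30, adjusted p = 0.0486), with means of 3.02 ± 0.28 (SD, n = 5) in the line and 4.07 ± 0.42 (SD, n = 3) in C57BL/6 embryos. Pilrb1, a paired immunoglobulin-like receptor, had a mean of 1.87 in the line, under the filter level, and was at least 1.80-fold lower than in C57BL/6 embryos at 2.91, a bound taken from group means and not a confidence limit (log2 change -1.05, SE 0.30, adjusted p = 0.0496). Magea2, a cancer-testis gene on X, had means of 2.17 ± 0.16 (SD, n = 5) in the line and 3.21 ± 0.61 (SD, n = 3) in C57BL/6 embryos (log2 change -1.04, SE 0.30, adjusted p = 0.049998).

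None of these 5 falls was called in every fit that left out 1 array. For Ass1 the call was lost without any array except KDM1A TG replicate 2, with adjusted p from 0.051 to 0.194. For Cyp2a22 and Pilrb1 it was lost without any array except nonTG replicate 1, with adjusted p from 0.0509 to 0.24 and from 0.0916 to 0.237. For Alyref2 it was lost without KDM1A TG replicate 1 or 3, nonTG replicate 2 or C57BL/6 replicate 1 or 2, with adjusted p from 0.0532 to 0.172. For Magea2 it was lost without any array except KDM1A TG replicate 2 and C57BL/6 replicate 2, with adjusted p from 0.0741 to 0.642. Next in order of p on the lower side, without passing, came the interferon alpha genes Ifna14 (log2 change -1.03, adjusted p = 0.0531) and Ifna15 (-1.02, adjusted p = 0.0589), members of a family of near-identical genes whose probesets may share signal. Vsig10l, Krt31, Slc22a28, Clec18a and Lingo1 lay below C57BL/6 without overlap at log2 changes of -0.79 to -0.99 and did not pass either. Vsig10l, Krt31 and Slc22a28 had line means under the filter level.

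**Figure D3:**
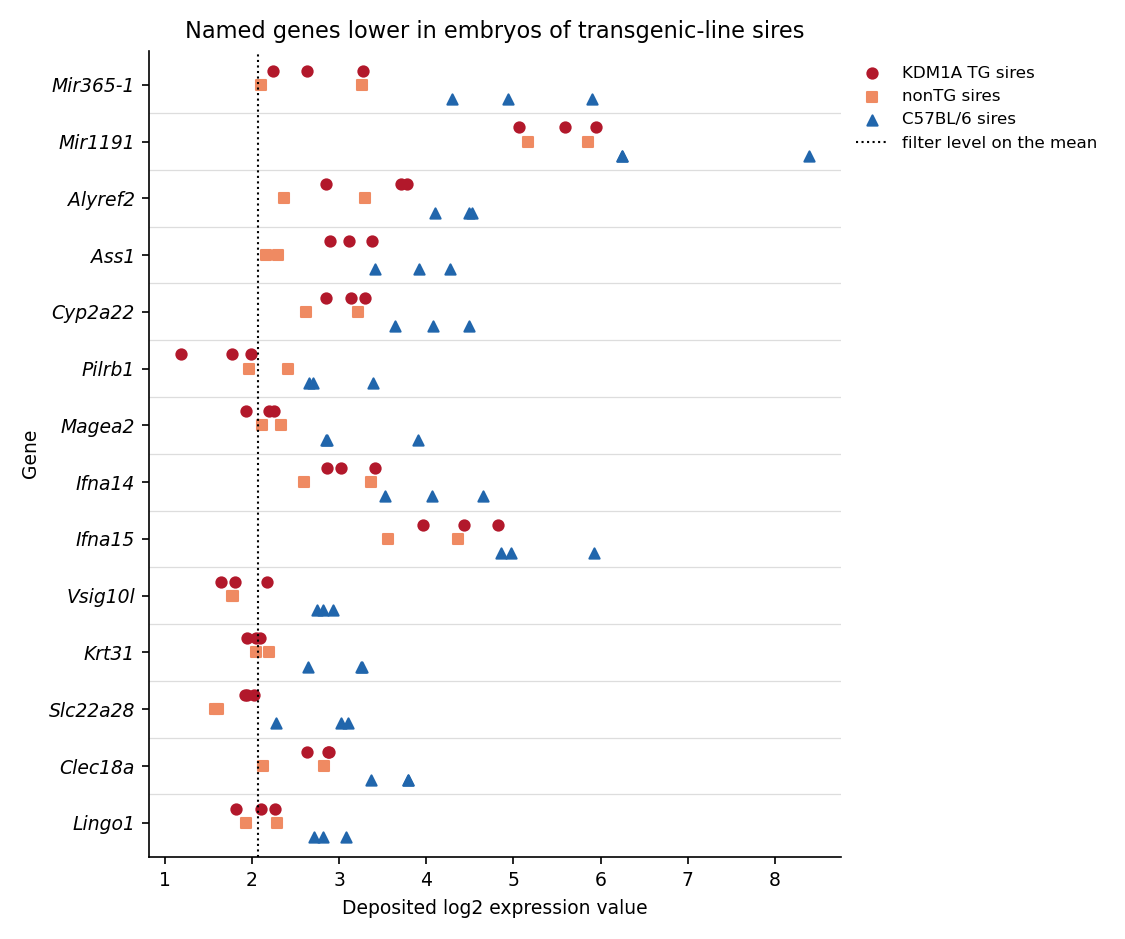
Deposited log2 values of the 14 named genes that lay lower in the transgenic line without overlap, 1 point per array, by kind of sire; the dotted line marks the filter level of 2.07. The 5 points of the line lie to the left of the 3 C57BL/6 points in every row, by 1.02 for Mir365-1 and by 0.03 for Ass1 and Ifna15.

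Housekeeping machineries of energy, protein breakdown and splicing stood above the median of all genes with few calls. Of 61 oxidative phosphorylation genes tested, 58 had a change above 0 and their median was 0.52, or 0.40 relative to all genes and 0.22 without C57BL/6 replicate 3. Atp5d, a subunit of the ATP synthase head, rose by 1.28 (SE 0.30, adjusted p = 0.00763), with 7.34, 5.98 and 6.93 in KDM1A TG and 6.59 and 6.13 in nonTG arrays, against 5.13, 5.89 and 4.93 in C57BL/6 arrays, and by 0.74 on its dimmer probeset. Sdha, the catalytic subunit of complex II, rose by 1.05 (SE 0.30, adjusted p = 0.0491), with 6.17, 6.01 and 6.69 in KDM1A TG and 5.90 and 6.11 in nonTG arrays, against 4.90, 5.45 and 5.05 in C57BL/6 arrays. On 8 of the 61, among them Ndufs7 and Ndufs8 of complex I (log2 changes 0.82 and 0.64) and Cyc1 of complex III (0.81), the line lay higher without overlap, a share close to the 12.1% of all genes with the highest level. Uqcrc2 of complex III overlapped (0.94, adjusted p = 0.1). Atp5d was not called without KDM1A TG replicate 1 or 3 or C57BL/6 replicate 1 or 3 (adjusted p = 0.0935 to 0.185), nor Sdha without any of these or nonTG replicate 2 (adjusted p = 0.0779 to 0.356).

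All 26 proteasome genes tested had a change above 0, with a median of 0.45, or 0.34 relative to all genes and 0.18 without C57BL/6 replicate 3. In limma 0 passed and 5 had an unadjusted p under 0.05. Of all 11444 genes tested, 1160 were higher at that level and 1.08% passed higher. The largest changes of the list were those of Pomp, the assembly chaperone of the proteasome (0.76, adjusted p = 0.23), and Psmc5, an ATPase of its cap (0.72, adjusted p = 0.256), and on 5 of the 26 the groups did not overlap, where 6.15% of all genes and 12.1% of those with the highest level were higher without overlap. Psmb6, a catalytic subunit, had 0.63 with overlap. The mean proteasome level was 6.13, 5.65 and 5.94 in KDM1A TG and 5.66 and 5.71 in nonTG arrays, against 5.36, 5.60 and 5.21 in C57BL/6 arrays, so that KDM1A TG replicate 2 and C57BL/6 replicate 2 almost met. Spliceosome genes had a median of 0.33 with 36 of 41 above 0 and 0 passing, with 4 higher at an unadjusted p under 0.05. Lsm3 had a change of 1.03 (adjusted p = 0.0595), Prpf8, the core of the spliceosome, 0.77 and Sf3b3 0.67. On 4 of the 41 the line lay higher without overlap, a share between the 6.15% of all genes and the 12.1% of those with the highest level. The spliceosome median relative to all genes was 0.21, or 0.12 without C57BL/6 replicate 1.

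Genes of the oocyte and of early genome activation leaned the other way. Against C57BL/6, the maternal oocyte median was -0.16 for KDM1A TG and -0.62 for nonTG embryos. In the same order the medians were -0.06 and -0.50 for 2-cell activation and -0.17 and -0.62 for 2-cell embryo markers. For the cell cycle they were -0.01 and -0.37. A lower median in nonTG embryos was not particular to these lists, and only the cumulus and sperm lists ran the other way. The spliceosome, for example, had 0.45 and 0.11 and ribosome biogenesis 0.21 and -0.21. On the mean level of each of these lists of oocyte, activation, marker and cell cycle genes, nonTG replicate 1 was the lowest array of all. There nonTG replicate 2 lay within the range of the KDM1A TG arrays. Of 43 maternal oocyte genes tested 36 had a change below 0, with a median of -0.32, and 0 passed in limma, with 4 lower at an unadjusted p under 0.05. Over all 11444 genes tested, limma gave 301 lower and 1160 higher at that level, and only 0.236% passed lower. The oocyte gene Oog1 had a log2 change of -0.78 (adjusted p = 0.229), Omt2b of -0.75, the maternal factor Nlrp9b of -0.81 and the nucleoplasmin gene Npm2 of -0.54. Relative to all genes the median was -0.43, and -0.67 without C57BL/6 replicate 2. Levels of the list were 4.21, 4.99 and 4.45 in KDM1A TG and 3.88 and 4.38 in nonTG arrays, against 4.90, 4.24 and 4.87 in C57BL/6 arrays, and the groups overlapped, KDM1A TG replicate 2 being the highest array of all. Genes of 2-cell activation had a median of -0.26, with 21 of 28 below 0, 0 passing and 3 lower at an unadjusted p under 0.05, Usp17lc at -0.97 (adjusted p = 0.084) and Trim43c at -0.70. The 13 markers of the 2-cell embryo had 11 changes below 0, 0 calls, 2 lower at an unadjusted p under 0.05 and a median of -0.24. All 13 also belong to the maternal oocyte or the 2-cell activation list, so their values are not a separate observation. Cell cycle genes had 35 of 45 below 0, 0 calls, 1 lower at an unadjusted p under 0.05 and a median of -0.15, with the mitotic kinase gene Aurkb at -0.85 and the proliferation marker Mki67 at -0.58, and the checkpoint gene Bub3 above C57BL/6 without overlap at 0.55. Relative to all genes and without C57BL/6 replicate 2, the medians were -0.63 for 2-cell activation, -0.66 for 2-cell embryo markers and -0.50 for the cell cycle, against -0.37, -0.36 and -0.27 with all arrays. They came nearest to 0 at -0.18 without nonTG replicate 1 for 2-cell activation, -0.18 without C57BL/6 replicate 1 for 2-cell embryo markers and -0.13 without C57BL/6 replicate 3 for the cell cycle. Ribosome biogenesis genes were split evenly, 16 of 33 above 0 with a median of -0.02, 0 calls and 1 gene each way at an unadjusted p under 0.05. Nop56, a core protein of the small nucleolar particles that guide ribosomal RNA methylation, lay lower without overlap (-0.86, adjusted p = 0.141), and Gnl2 lay higher (0.55). Taf1d also lay higher on its brightest probeset (0.68), while its other probesets ran from -0.69 to 0.74.

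**Figure D4:**
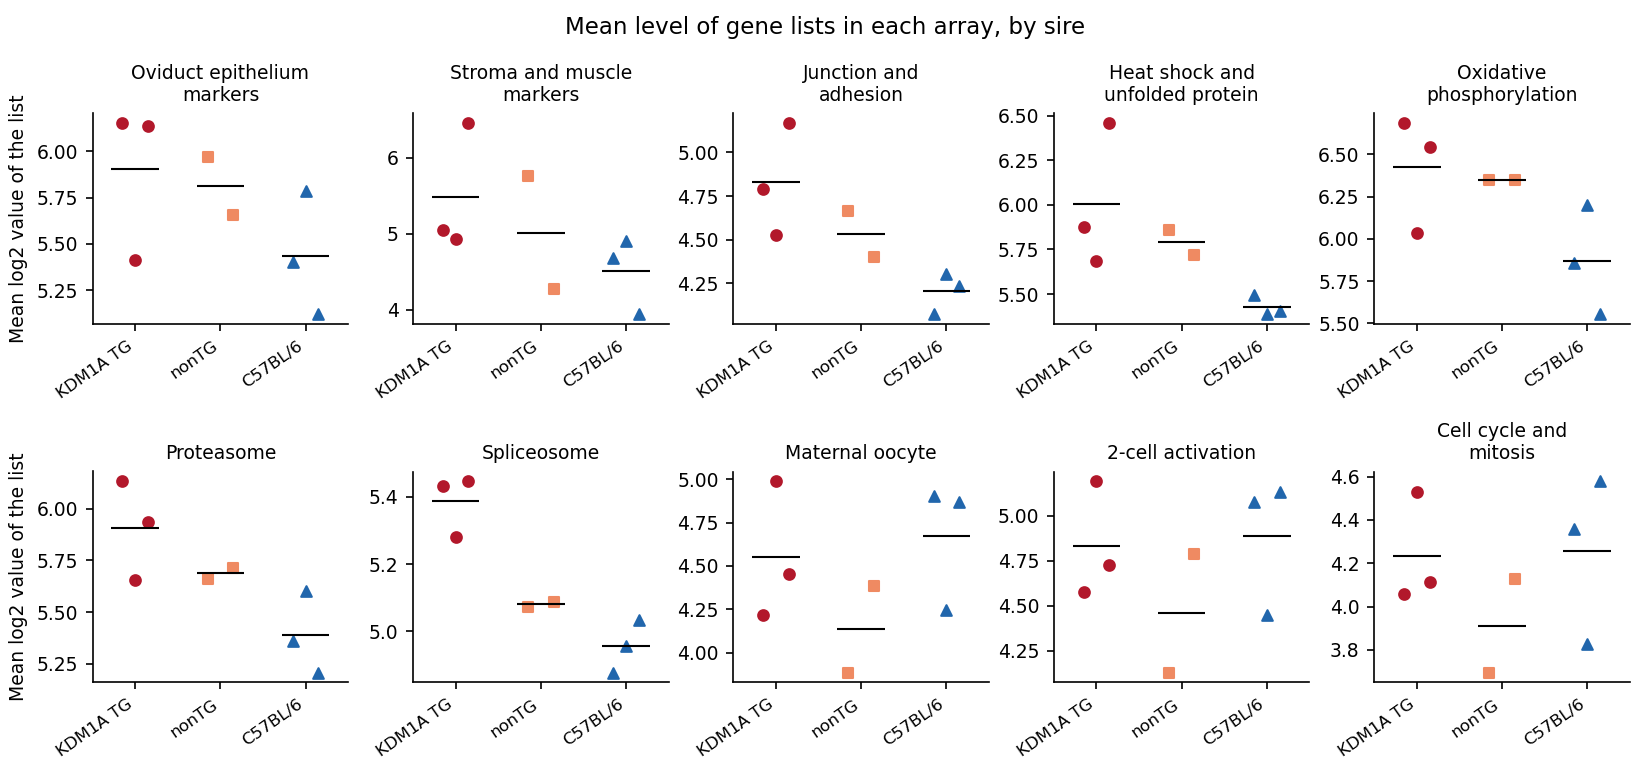
Mean deposited log2 value of 10 gene lists in each array, by kind of sire, with a bar at the mean of each group; the y axes differ between panels and do not start at 0. The junction, heat shock, proteasome and spliceosome levels of all 5 arrays of the line lie above those of the 3 C57BL/6 arrays, and the maternal oocyte, 2-cell activation and cell cycle levels overlap.

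Markers of cells that a flushed pool can hold beside embryos ran in different directions. The oviduct epithelium, stroma and fat lists had medians above 0, and the cumulus and blood lists below it. Of 20 oviduct epithelium markers 18 were measured and all 18 were tested, 15 with a change above 0, around a median of 0.34. Set against all genes it was 0.23, with 0.12 without C57BL/6 replicate 3 and 0.46 without C57BL/6 replicate 2. Of the 18, 1 passed (Wfdc2), where 1.08% of all genes passed higher. Without overlap 2 of the 18 were higher, where 6.15% of all genes and 12.1% of those with the highest level were. The cilia gene Dynlrb2 had means of 9.97 in the line and 9.71 in C57BL/6 embryos. Foxj1, the master regulator of motile cilia, had means of 5.79 in the line and 4.96 in C57BL/6 embryos. The mean level of the list was 6.16, 5.41 and 6.14 in KDM1A TG and 5.97 and 5.65 in nonTG arrays, against 5.40, 5.79 and 5.12 in C57BL/6 arrays. KDM1A TG replicate 2 and C57BL/6 replicate 1 nearly coincided, and C57BL/6 replicate 2 lay above 2 arrays of the line. With this mean as a covariate, an alternative chosen after seeing the data, 2 genes passed higher (Ap1s3 and Naip5) and 5 lower (Mir365-1, Retnla, Gm5166, Dcpp2 and Olfr458). Under the same covariate and relative to all genes, the medians of the maternal oocyte, 2-cell activation and cell cycle lists turned to 0.02, 0.12 and 0.15. Those of the heat shock, junction, spliceosome, oxidative phosphorylation and proteasome lists were 0.31, 0.30, 0.18, 0.12 and 0.11. Without the covariate these 5 relative medians were 0.38, 0.45, 0.21, 0.40 and 0.34. In pools, fewer cells of a type and less RNA per cell cannot be told apart.

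All 14 markers of stroma and muscle had a change above 0, with a median of 0.75. Acta2, the actin of smooth muscle, passed with 5.76, 5.75 and 7.88 in KDM1A TG and 7.12 and 5.06 in nonTG arrays, against 5.52, 4.90 and 3.70 in C57BL/6 arrays (log2 change 1.61, SE 0.32, adjusted p = 0.000893). Cnn1 (1.18, adjusted p = 0.0271) and Mgp (1.12, adjusted p = 0.0436) passed as well, and on all 3 the groups overlapped. These were 3 of the 14, where 1.08% of all genes passed higher. None of the 3 passed without KDM1A TG replicate 3 or without C57BL/6 replicate 3, Acta2 then giving adjusted p = 0.164 and 0.217, Cnn1 0.467 and 0.571 and Mgp 0.49 and 0.574. Cnn1 also lost its call without either nonTG array (adjusted p = 0.0741 and 0.0704) or C57BL/6 replicate 1 (adjusted p = 0.0602), and Mgp without KDM1A TG replicate 1, nonTG replicate 1 or C57BL/6 replicate 1 (adjusted p = 0.0784, 0.134 and 0.103). The mean level of the list spanned 4.27 to 6.47 in the line and 3.94 to 4.90 in C57BL/6 arrays, highest in KDM1A TG replicate 3 and lowest in C57BL/6 replicate 3. Once oviduct marker levels entered the fit as a covariate, its relative median was -0.08, against 0.64 without the covariate and 0.33 without C57BL/6 replicate 3.

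Of 12 cumulus and granulosa markers 5 were tested, 0 passed, 0 had an unadjusted p under 0.05 and the median was -0.27. Amh (-0.35) and Has2 (-0.35) had line means of 2.05 and 2.10, beside the filter level, and Inha had -0.27. Of 7 blood and immune markers tested 2 passed, both lower, where 0.236% of all genes passed lower. S100a8, which encodes a calcium-binding protein of neutrophils, ranged from 1.73 to 4.77 in the line, against 7.49, 3.76 and 4.24 in C57BL/6 arrays. Its partner S100a9 ranged from 1.80 to 3.41 in the line, against 6.41, 2.82 and 3.70 in C57BL/6 arrays, so C57BL/6 replicate 1 stood apart on both. Their changes of -1.84 (adjusted p = 0.000367) and -1.83 (adjusted p = 0.000135) became -0.68 and -0.78 without that array (adjusted p = 0.66 and 0.534). Neither was called without KDM1A TG replicate 3 (adjusted p = 0.172 for S100a8 and 0.072 for S100a9), and S100a8 not without nonTG replicate 2 (adjusted p = 0.147). Cd68, a macrophage marker, had 0.64 (adjusted p = 0.364). Of 8 sperm markers 2 were tested, Tnp1 at 0.15 and Gapdhs at -0.13, and neither passed. Of 6 fat markers 5 had a change above 0, 0 passed and 1 was higher at an unadjusted p under 0.05, where 1160 of all 11444 genes tested were. Their median was 0.35. Set against all genes it was 0.24, with 0.048 without KDM1A TG replicate 1 and 0.46 without nonTG replicate 1. Retn had 0.49 and Lpl 0.35. The rise of the fat list was that of KDM1A TG embryos, with a median against C57BL/6 of 0.74, where nonTG embryos had -0.064. The mean level of the list was 2.89 and 2.86 in nonTG arrays, against 3.33, 3.37 and 3.24 in C57BL/6 arrays. Every KDM1A TG array stood above every C57BL/6 array on this level. Fabp4 and Car3, also of the list, were higher in KDM1A TG than in nonTG embryos by 3.82 and 3.46, as given below.

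Chromatin genes nearest to the function of KDM1A had medians near that of all genes, 0.12. Of all 11444 genes tested, limma gave 1160 higher and 301 lower at an unadjusted p under 0.05, and 1.08% passed higher. Of 11 histone lysine demethylase genes tested 7 had a change above 0, 0 passed, 0 had an unadjusted p under 0.05 and the median was 0.21, with Jmjd1c at 0.47, Kdm4a at 0.45 and Kdm4c at 0.33. Of 20 genes of H3K4 methyltransferase complexes 14 were above 0, with a median of 0.08. Kmt2e, a relative of the methyltransferases, passed at the threshold with overlapping groups (log2 change 1.05, SE 0.30, adjusted p = 0.049998), and Men1, the menin subunit, lay higher without overlap (0.81, adjusted p = 0.188). Bod1, also of that list, had 0.38 on the probeset used and -0.25 on another. Kmt2e was not called without KDM1A TG replicate 1 or 3, either nonTG array, or C57BL/6 replicate 1 or 3 (adjusted p = 0.113 to 0.415), nor with the replicate number as a block (adjusted p = 0.0658). Of 16 KDM1A complex partners tested 12 were above 0, 0 passed, 2 were higher at an unadjusted p under 0.05 and the median was 0.09. Against C57BL/6 that median was 0.27 for KDM1A TG and -0.12 for nonTG embryos. Without overlap 4 of the 16 lay higher, where 6.15% of all genes and 12.1% of those with the highest level did. Among them were the histone-binding proteins Rbbp4 (0.84, adjusted p = 0.16) and Rbbp7 (0.54) and the deacetylase Hdac2 (0.61). Of 15 DNA methylation genes 7 were above 0, with a median of -0.05, 0 calls and, at an unadjusted p under 0.05, 2 higher and 1 lower, Uhrf2 at 0.61 without overlap and Mbd1 at 0.64. Hdac3, the deacetylase of a neighbouring corepressor complex, rose by 1.18 (adjusted p = 0.0168) with 5.11, 4.46 and 5.56 in KDM1A TG and 4.42 and 4.71 in nonTG arrays, against 3.38, 4.08 and 3.54 in C57BL/6 arrays. It lay outside these lists and the rule for named genes and was chosen after its values were seen. Hdac3 did not pass after quantile normalization or cyclic loess, and its fits without single arrays are not given here.

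A further 58 genes passed although at least 1 array of the line fell among the C57BL/6 arrays, 46 higher and 12 lower. The genes named here were chosen after their values were seen. Prap1 and S100g, abundant in epithelia of the reproductive tract and gut, rose by 1.71 and 1.56 (adjusted p = 0.00121 and 0.000897). Prap1 spanned 9.04 to 11.82 in the line and 5.94 to 9.97 in C57BL/6 embryos. Myd88, which relays Toll-like receptor signals, rose by 1.71 (adjusted p = 0.000135), with nonTG replicate 1 at 4.98 and C57BL/6 replicate 2 at 5.25 as the arrays that crossed. The largest lower changes of this kind each came from 1 C57BL/6 array. Sprr2d, a cornified envelope protein, ranged from 1.90 to 3.76 in the line, against 9.24, 2.64 and 2.53 in C57BL/6 arrays (log2 change -2.13, adjusted p = 0.000322). Retnla, a secreted resistin relative, ranged from 0.71 to 3.41 in the line, against 2.23, 6.78 and 2.31 in C57BL/6 arrays (adjusted p = 0.00132). Its line mean of 2.04 lay under the filter level, so by group means it was at least 3.27-fold lower in the line.

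The direct contrast between KDM1A TG and nonTG embryos gave 5 genes of 11444 (0.0437%). Of these 5, 0 were among the 151 genes that passed for the line against C57BL/6 embryos. As only 1.32% of all genes tested passed there, 0 of 5 says little. The 93 genes that passed without overlap were chosen by having all 5 arrays of the line on 1 side, which favours small differences within the line, so their values here are a description. The difference between KDM1A TG and nonTG was largest in size for Ass1, at 0.90 (SE 0.36, adjusted p = 0.731). It ran with KDM1A TG above nonTG on 53 of the 78 higher genes and the other way on 25. The share over all genes tested is not given here, and most gene lists also had a higher median in KDM1A TG embryos. The 53 can therefore not be read as a trait of these genes. At an unadjusted p under 0.05, 1 of the 93 differed between the kinds of sire, again without a share over all genes beside it. A difference that misses the threshold does not show the groups to be alike. With 2 nonTG arrays the standard errors of this contrast were wider, 0.37 for Jam2 against 0.30 for the line against C57BL/6.

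Whether a gene passed depended on how the arrays were scaled. After quantile normalization 5 genes passed higher and 1 lower (Mir365-1), and after cyclic loess 0 higher and 1 lower (Mir365-1). With loess, limma gave 680 higher and 449 lower genes at an unadjusted p under 0.05, the 5 higher genes named above each reaching an adjusted p of 0.0564. Of the 93 genes that passed without overlap in the deposited values, 81 still did not overlap on the same side after quantile normalization, 70 after cyclic loess and 91 after centring each array on its median, and all 93 kept their direction under each. Without KDM1A TG replicates 1 and 3, an alternative chosen after seeing the data, 1 gene passed higher, Ap1s3 (log2 change 1.93, adjusted p = 0.0143), and 2 lower, Mir365-1 (-2.51, adjusted p = 0.0014) and the pseudogene Gm5166 (-1.82, adjusted p = 0.0143). Leaving out single arrays gave from 15 genes higher and 3 lower without KDM1A TG replicate 3 to 235 higher and 44 lower without KDM1A TG replicate 2. The limma fit pooled the spread of genes so far that standard errors ran only from 0.297 to 0.404, so passing came close to a fixed fold, the smallest log2 change that passed being 1.04 in size.

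**Figure D5:**
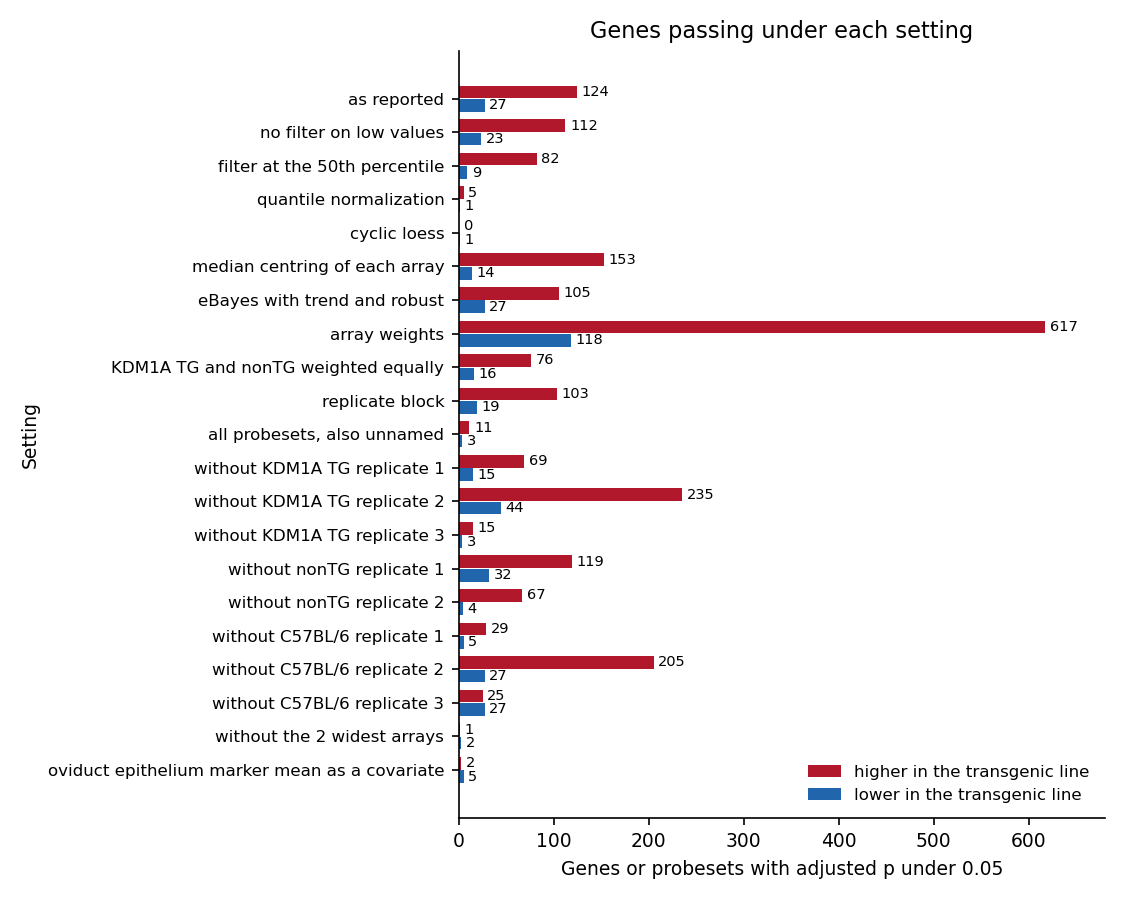
Number of genes (or probesets, where unnamed ones entered) with an adjusted p under 0.05 for the transgenic line against C57BL/6 under each setting, in bars that start at 0, those higher in the line above those lower. The counts run from 0 higher and 1 lower after cyclic loess to 617 higher and 118 lower with array weights, against 124 and 27 as reported.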

How the data were processed

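RNA of 8 pools of 2-cell embryos was hybridised to 8 Affymetrix arrays, 3 with KDM1A TG, 2 with nonTG and 3 with C57BL/6 sires. The deposited values are log2 expression per probeset, made by the authors with RMA of the oligo package in R 3.1.0, per the submitters' processing notes, which also name limma. The deposited columns did not share 1 distribution. No scanner files were used here, so signal over background is unknown. Of 22961 probesets 15745 had 1 gene symbol in GEO's platform annotation, 1320 several and 5896 none. The brightest probeset stood for each of 14995 genes, and 14876 matched RefSeq by Entrez identifier. A gene was tested if its mean exceeded log2 2.07, the percentile 30 of probeset means, which kept 11444, with limma 3.58.1 in R 4.3.3 (lmFit, eBayes, 5 arrays against 3, Benjamini-Hochberg adjustment over all genes tested, threshold 0.05); the difference between KDM1A TG and nonTG came from a fit of 3 groups. The fit was tested on simulated data. Group means carry SDs over arrays.

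Named genes were the 15 largest rises and 15 largest falls among genes that passed with groups that did not overlap, filled to 10 by the smallest p without overlap where fewer passed, the 5 widest gaps each way, and up to 3 members of each of 25 lists by p. Predicted genes, chemosensory receptors and pseudogenes were counted only, and small RNA genes were ranked apart. Members and lists were chosen with earlier results of these data known. Alternatives changed the filter, scaling, variance model, weights, probesets and arrays used.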

Additional observations from a re-analysis of the deposited data

Results flagged for a closer look

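Among the 5 arrays of the line, 119 named genes and list levels were checked for an array far from the others, and 6 stood out, where chance alone gives such a flag in about 5% of groups. KDM1A TG replicate 3 stood apart on Jam2 (7.79, nearest array 6.88), Btg2 (5.78, nearest 4.99), Dnajc3 (7.09, nearest 6.14) and the heat shock and unfolded protein response level (6.46, nearest 5.87). KDM1A TG replicate 1 stood apart on Retn (5.32, nearest 3.42), and nonTG replicate 2 on Amh (2.28, nearest 2.03).

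The response against C57BL/6 differed between KDM1A TG and nonTG embryos for 5 genes in limma's direct contrast. Fabp4, a fatty acid carrier of fat cells, had 6.57, 5.57 and 5.36 in KDM1A TG arrays and 2.05 and 1.97 in nonTG arrays, with 4.56, 4.66 and 2.62 in C57BL/6 arrays (KDM1A TG minus nonTG 3.82 on the log2 scale, adjusted p = 1.76e-10). Car3, a carbonic anhydrase abundant in fat and muscle, differed by 3.46 (adjusted p = 1.26e-09). H2bc12 differed by 1.77 (adjusted p = 0.0494), Isoc2a by 1.67 (adjusted p = 0.0494) and Gm17695 by -1.85 (adjusted p = 0.0105).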

How the results depend on the processing

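Counts of genes are given higher and then lower in the line, against 124 and 27 passing and 704 and 231 without overlap as reported. No filter gave 357 lower without overlap. A filter at the 50th percentile gave 82 and 9 passing, 105 lower without overlap, and relative medians of 1.05 for carbonic anhydrases and 0.32 for the trophectoderm list. Quantile normalization gave 5 and 1, with 2 genes for KDM1A TG against nonTG. Cyclic loess gave 0 and 1, 429 higher without overlap, and relative medians of 0.11 for the proteasome and 0.036 for the spliceosome; it was not run for KDM1A TG against nonTG. Median centring gave 14 lower, array weights 617 and 118, equal weights of KDM1A TG and nonTG 76 and 16, and all probesets 11 and 3 with 409 lower without overlap. Leaving out 1 array gave 15 to 235 higher and 3 to 44 lower, 730 to 1651 and 287 to 668 without overlap, 2 to 17 for KDM1A TG against nonTG, and 0.054 to 0.24 for the trophectoderm median. Over the same fits Tnp1 ran from -0.0071 to 0.31 and Gapdhs from -0.35 to 0.15, both crossing 0.

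Chosen after seeing the data, the oviduct marker mean as a covariate gave 2 and 5 genes. Its relative medians were -0.25 for cumulus markers, 0.075 for 2-cell embryo markers, 0.020 for maternal oocyte, 0.12 for 2-cell activation, 0.12 for oxidative phosphorylation, 0.11 for the proteasome, -0.13 for the sodium pump, 0.22 for KDM1A partners, 0.036 for DNA methylation, 0.28 for ribosome biogenesis and 0.15 for the cell cycle. Under it Cd68 was -0.14, Dppa3 0.11 and Fxyd1 -0.24. Without KDM1A TG replicates 1 and 3, also chosen after seeing the data, 1 and 2 genes passed, 439 were lower without overlap, the cumulus median was -0.19 and Gapdhs 0.024. The causes were not tested.

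With the replicate number as a block 122 genes passed, 103 and 19, of which 116 were among the 151 reported. Arrays with the same number did not deviate together from their group means (r from -0.38 to 0.18). With 2 or 3 arrays in a group these deviations are tied to each other. Whether the numbers pair the samples therefore cannot be decided from them. Over named genes 274 of the repeated fits lost a call and 54 gained one. Scalings moved the median change of all genes, 0.12, to between 0.06 and 0.17.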
